A study of Caenorhabditis elegans with 18 samples.

Results

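The subject is the feeding response of first-stage (L1) larvae of the nematode Caenorhabditis elegans that carry rsks-1(ok1255), a mutation in the gene for the p70 S6 kinase. The response is the change in transcript counts of whole larvae between 4 h on food and starvation arrest, and it covers every gene with enough counts, 14073 of the 46904 genes in the table. It rests on 6 of the 18 libraries, 3 of fed and 3 of starved rsks-1(ok1255) larvae. By the labels, larvae of both groups hatched from bleached eggs and were held in M9 buffer without food for 24 h. The fed larvae were then placed on plates with OP50 bacteria for 4 h. The labels do not say how the starved larvae were handled during the 4 h in which the others were on plates, so age and handling may differ between fed and starved larvae along with food. The other groups were fed and starved raga-1(ok386) larvae, mutant in the gene for the RagA GTPase, and fed and starved N2 larvae, the wild type, with 3 libraries each. All strains were in the N2 line, were kept at 20 °C and hatched in M9 without food, and each mutant gene was represented by 1 allele. RNA came from the whole body, so a lower level can come from fewer cells of a type or from less RNA per cell, and these cannot be told apart. The labels do not say whether the 3 libraries of a group came from separate cultures, so each p measures the spread between these libraries.

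TORC1 (target of rapamycin complex 1) is a kinase complex at the lysosome that amino acids switch on through the Rag GTPases, among them RAGA-1. S6 kinase is one of its direct substrates and promotes protein synthesis and growth, and loss of rsks-1 is known to slow growth and lengthen adult life in this species. Larvae that hatch without food arrest in L1 with low insulin signalling and an active FOXO factor, DAF-16, and live on stored fat and sugar until food lets development begin.

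The mutated gene was checked first. rsks-1 (WBGene00012929, chromosome III in the WBcel235 annotation) had 27.8, 22.8 and 23.8 CPM (the usual counts-per-library-size unit, with library sizes scaled by TMM) in fed mutants and 36.4, 34.6 and 41.7 CPM in starved mutants. In N2 it had 174, 160.5 and 178 CPM in fed larvae and 196, 178 and 185 CPM in starved larvae. Every mutant library lay below every N2 library, with a log2 difference of -2.80 ± 0.06 (standard error) when fed and -2.31 ± 0.05 when starved. Reads were still counted on the gene in the mutants, between 270 and 612 in each library. The table holds 1 transcript of the gene, so it does not show which part of the transcript they came from.

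Within the mutants the remaining rsks-1 counts were lower after feeding, with a log2 change of -0.61 ± 0.07. The change was -0.12 in N2, and the difference between the responses was -0.49 ± 0.08 (adjusted p = 1.50e-06). Total counts per library ran from 10840870 to 16714185 in the rsks-1 mutants and from 9929323 to 18539402 over all libraries. Ribosomal RNA took 3.03 to 4.37% of counts in fed mutants and 3.20 to 3.94% in starved mutants. Replicates 1 and 3 of the fed mutants were further apart than any other replicate pair of the series, with a mean chi-square per gene of 5.99 against 2.12 to 4.05, and replicate 1 had the highest ribosomal RNA share of all libraries. Without it 9740 genes were called changed on feeding, and without replicate 3 9664 were, against 9968 with all libraries. Other noncoding RNA took 0.249 to 0.259% of counts in fed mutants and 0.742 to 0.792% in starved mutants.

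Feeding changed most of the transcriptome of rsks-1 larvae. A gene is called changed where edgeR's quasi-likelihood test gave an adjusted p below 0.05 over all 14073 genes. By that rule 9968 genes (70.8%) changed, 5021 of them higher (35.7%) and 4947 lower (35.2%) in fed larvae. Changes of at least 2-fold were called for 1823 higher genes (13%) and 2224 lower genes (15.8%). Large falls outnumbered large rises: 178 genes fell and 54 rose by at least 16-fold. In 10264 genes (72.9%) the CPM of the 3 fed and the 3 starved libraries did not overlap.

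The balance of higher and lower genes depends on the scaling. With library totals alone in place of TMM factors, 3974 genes were higher and 6250 lower, or 38.9% higher among those called against 50.4%, and the median log2 change of all genes moved to -0.22 from -0.02. Genes counted below as rising or falling are called against a log2 change of 0 under TMM scaling, not against that median. List counts are therefore to be read beside 35.7% higher and 35.2% lower over all genes, and list medians beside that of all genes. List statements that turn with library totals alone are named. Genes that rose at least 2-fold took 18.96 ± 0.09% of all counts in fed larvae and 7.24 ± 0.04% in starved larvae (SD, n = 3). Genes that fell at least 2-fold took 3.06 ± 0.01% in fed larvae and 13.3 ± 0.06% in starved larvae. By chromosome, the median log2 change ran from -0.25 on chromosome V to 0.15 on chromosome III.

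The genes that fell most included several of starvation metabolism. acs-2, an acyl-CoA synthetase that feeds fatty acids into mitochondrial oxidation, had 0.309, 0.946 and 0.916 CPM in the fed libraries, against 1107, 1100 and 1086 CPM in the starved libraries. Its log2 change was -10.46 ± 0.20, the lowest among the genes named by the rule. adh-1, an alcohol dehydrogenase, had 10.52, 12.8 and 11.2 CPM in the fed libraries, against 7781, 7852 and 7836 CPM in the starved libraries, a log2 change of -9.39 ± 0.05. fmo-2, a flavin monooxygenase induced by fasting, had 1.55, 0.811 and 1.53 CPM in the fed libraries, against 1134, 1132 and 1130 CPM in the starved libraries, a log2 change of -9.81 ± 0.18. For all 3 genes every fed library lay far below every starved one.

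The noncoding RNA tts-1, which is abundant in dormant larvae, had 19.6, 20.6 and 21.8 CPM in the fed libraries, against 2855, 2907 and 3201 CPM in the starved libraries. icl-1, the bifunctional enzyme of the glyoxylate shunt that turns fat into sugar precursors, had 27.3, 25.3 and 27.4 CPM in the fed libraries, against 3145, 3110 and 3120 CPM in the starved libraries. Their log2 changes were -7.17 ± 0.11 and -6.88 ± 0.04. The remaining genes among the 12 lowest were nnt-1, a mitochondrial transhydrogenase, hil-1, a linker histone variant, ttr-37, spp-2, dod-3, cyp-37B1 and mltn-1, with log2 changes from -6.49 for nnt-1 to -5.19 for cyp-37B1, apart from mltn-1. mltn-1 had 3 counts over the fed libraries and 811 over the starved ones, a ratio of 239-fold lower in fed larvae with a 95% counting interval of 81.4 to 1161.

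The genes that rose most included genes of the infection response and of detoxification. spp-17, a saposin-like protein gene, had 597, 619 and 675 CPM in the fed libraries, against 4.88, 4.81 and 6.0 CPM in the starved libraries. irg-4, an infection response gene, had 332, 344 and 341 CPM in the fed libraries, against 4.29, 3.70 and 4.77 CPM in the starved libraries. Their log2 changes were 6.91 ± 0.26 and 6.32 ± 0.09, and no fed library overlapped a starved one. Cytochrome P450 genes of the cyp-35 family, which act on foreign compounds, were also among the highest: cyp-35C1 had 138, 137 and 146 CPM in the fed libraries, against 4.03, 3.64 and 2.79 CPM in the starved libraries, and cyp-35D1 and cyp-35A5 changed by 7.62 ± 0.66 and 6.30 ± 0.48. The rest of the 12 highest were the inositol transporter genes hmit-1.1 and hmit-1.2, the astacin protease nas-3, the collagen col-149, the metallothionein mtl-2, spp-23 and ugt-63, with log2 changes from 4.99 to 7.18. These genes were taken among those with a letters-hyphen-number name. Outside that naming, Y48E1B.8, chosen after its values were seen, had 3092 counts over the fed libraries and 2 over the starved ones, a ratio of 1750-fold higher in fed larvae with a 95% counting interval of 484 to 14460. Genes such as the cyp-35 and hmit members have close copies, and RSEM divides shared reads among them.

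**Figure D1:**
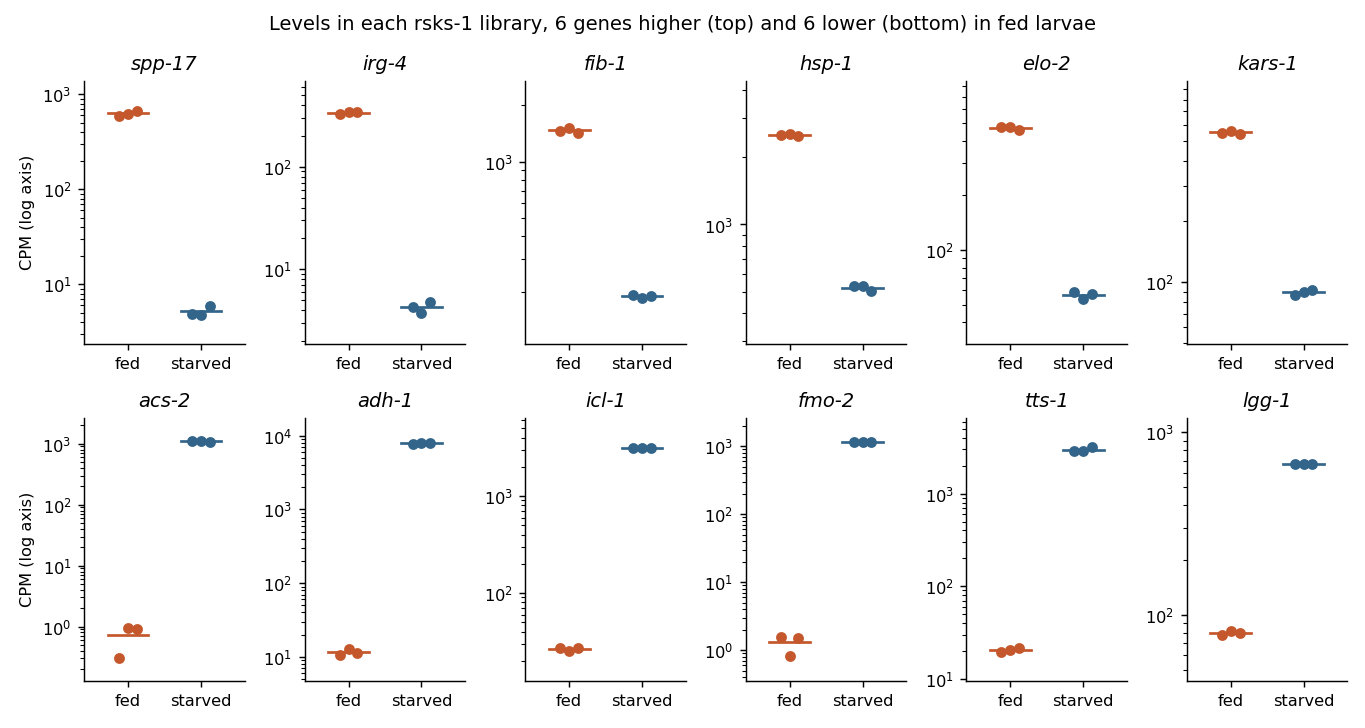
CPM on log axes in each of the 3 fed and 3 starved rsks-1 libraries for 6 genes that were higher (top) and 6 that were lower (bottom) in fed larvae; points are libraries and lines their means. The fed and starved points do not overlap for any of the 12 genes.

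Genes that make sugar from stored fat fell. Of 17 genes of the glyoxylate shunt, gluconeogenesis and trehalose synthesis, 14 fell and 2 rose, with a median log2 change of -1.02 against -0.02 for all genes. The list took 0.163 ± 0.001% of counts in fed larvae and 1.52 ± 0.007% in starved larvae (SD, n = 3). pyc-1, pyruvate carboxylase, had 99.3, 95 and 89.6 CPM in the fed libraries, against 557, 557 and 545 CPM in the starved libraries, a log2 change of -2.55 ± 0.04. The phosphoenolpyruvate carboxykinases pck-1 and pck-2, chosen after their values were seen, changed by -1.23 ± 0.03 and -1.17 ± 0.03. gpdh-1, a glycerol-3-phosphate dehydrogenase that makes glycerol, went the other way, with 20.4, 24.2 and 21.1 CPM in the fed libraries, against 2.23, 1.11 and 1.77 CPM in the starved libraries.

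Fatty acid oxidation genes did not move as a block. Of 44 tested, 20 rose and 21 fell, and the median log2 change was -0.05. Beside acs-2, the acyl-CoA synthetase acs-11 fell by 4.52, and ech-7, an enoyl-CoA hydratase, rose, with 111, 125 and 115 CPM in the fed libraries, against 15.1, 13.8 and 14.4 CPM in the starved libraries. Among 23 lipase and lipid droplet genes 15 fell and 7 rose, beside 35.2% lower and 35.7% higher of all genes. lbp-1, a fatty acid binding protein, had 19.7, 18.7 and 20.8 CPM in the fed libraries, against 374, 353 and 361 CPM in the starved libraries, while lbp-6, another of that family, had 512, 529 and 546 CPM in the fed libraries, against 152, 155 and 154 CPM in the starved libraries. lipl-3, a lysosomal lipase known to rise on fasting, had 2.58, 2.84 and 2.60 CPM in the fed libraries, against 94.2, 86 and 91.6 CPM in the starved libraries.

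Glycolysis and the citrate cycle were mixed, beside 35.7% of all genes higher and 35.2% lower. Of 27 glycolysis and glycogen genes 10 rose and 11 fell, and of 20 citrate cycle genes 10 rose and 9 fell, with medians of 0.06 and 0.06 that turned to -0.14 and -0.13 with library totals alone. aldo-2, an aldolase, had 589.7, 619 and 597 CPM in the fed libraries, against 1313, 1370 and 1325 CPM in the starved libraries, and the citrate synthase gene cts-1 had 847, 848 and 829.8 CPM in the fed libraries, against 1801, 1812 and 1793 CPM in the starved libraries. sucg-1, a subunit of succinyl-CoA synthetase, had 96.3, 93.6 and 89.8 CPM in the fed libraries, against 14.2, 17.4 and 15.7 CPM in the starved libraries, the opposite direction. Of 32 nuclear genes of the respiratory chain 23 rose and 2 fell, with a median of 0.24, and with library totals alone 14 rose and 9 fell. The changes were small: the quartiles of the list lay at 0.10 and 0.39.

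Fatty acid synthesis rose on feeding. Of 32 genes for synthesis, desaturation, elongation and phospholipid assembly 25 rose and 4 fell, with a median log2 change of 0.96. They took 1.16 ± 0.005% of counts in fed larvae and 0.794 ± 0.006% in starved larvae (SD, n = 3). elo-2, which lengthens palmitic acid, had 478, 477 and 458 CPM in the fed libraries, against 58.7, 54 and 57.0 CPM in the starved libraries, a log2 change of 3.06 ± 0.04. elo-5, needed for branched-chain fatty acids, had 344, 351 and 348 CPM in the fed libraries, against 43.7, 41.8 and 44.8 CPM in the starved libraries, a log2 change of 3.0 ± 0.04. Of the desaturases that insert the first double bond, fat-7 rose, with 10.6, 12.16 and 12.9 CPM in the fed libraries, against 0.428, 0.617 and 0.750 CPM in the starved libraries, and fat-5 fell, with 11.3, 9.59 and 10.1 CPM in the fed libraries, against 66.2, 66.2 and 61.7 CPM in the starved libraries. fat-6, chosen after its values were seen, also fell, by 0.76 on the log2 scale.

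The desaturases that make polyunsaturated fatty acids rose in rsks-1 larvae and fell in N2 larvae. fat-2, the delta-12 desaturase, had 2129, 2160 and 2122 CPM in the fed libraries, against 943, 960.2 and 960 CPM in the starved libraries. In N2 it had 704, 702 and 714 CPM in fed larvae and 1662, 1657 and 1721 CPM in starved larvae. The log2 changes were 1.16 ± 0.03 in the mutant and -1.25 ± 0.03 in N2, and the difference was 2.41 ± 0.04 (adjusted p = 9.15e-91). fat-3, the delta-6 desaturase, had 1017, 1006 and 995 CPM in the fed libraries, against 638, 638 and 638 CPM in the starved libraries. In N2 it had 376, 367 and 360.3 CPM in fed larvae and 1082, 1078 and 1090 CPM in starved larvae, and the difference between the responses was 2.22 ± 0.04.

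The starved levels of both genes were lower in the mutant than in N2 and the fed levels were higher, with no overlap between libraries. fat-1 and fat-4, the omega-3 and delta-5 desaturases of the same route, were chosen after their values were seen. fat-1 changed by 0.83 ± 0.03 in the mutant and -0.13 ± 0.03 in N2, and fat-4 by 0.63 ± 0.03 and -0.74 ± 0.03. Their differences were 0.96 ± 0.04 and 1.36 ± 0.04. In raga-1 larvae fat-2, fat-3 and fat-4 fell, by 0.20, 0.45 and 0.31, and fat-1 rose by 0.11. The elongases elo-2 and elo-5 rose more in the mutant than in N2, with differences of 1.28 ± 0.05 and 1.64 ± 0.06. Over the list the difference from N2 was called positive for 16 genes and negative for 5. Over all genes it was positive for 10.8% and negative for 15.8%.

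**Figure D2:**
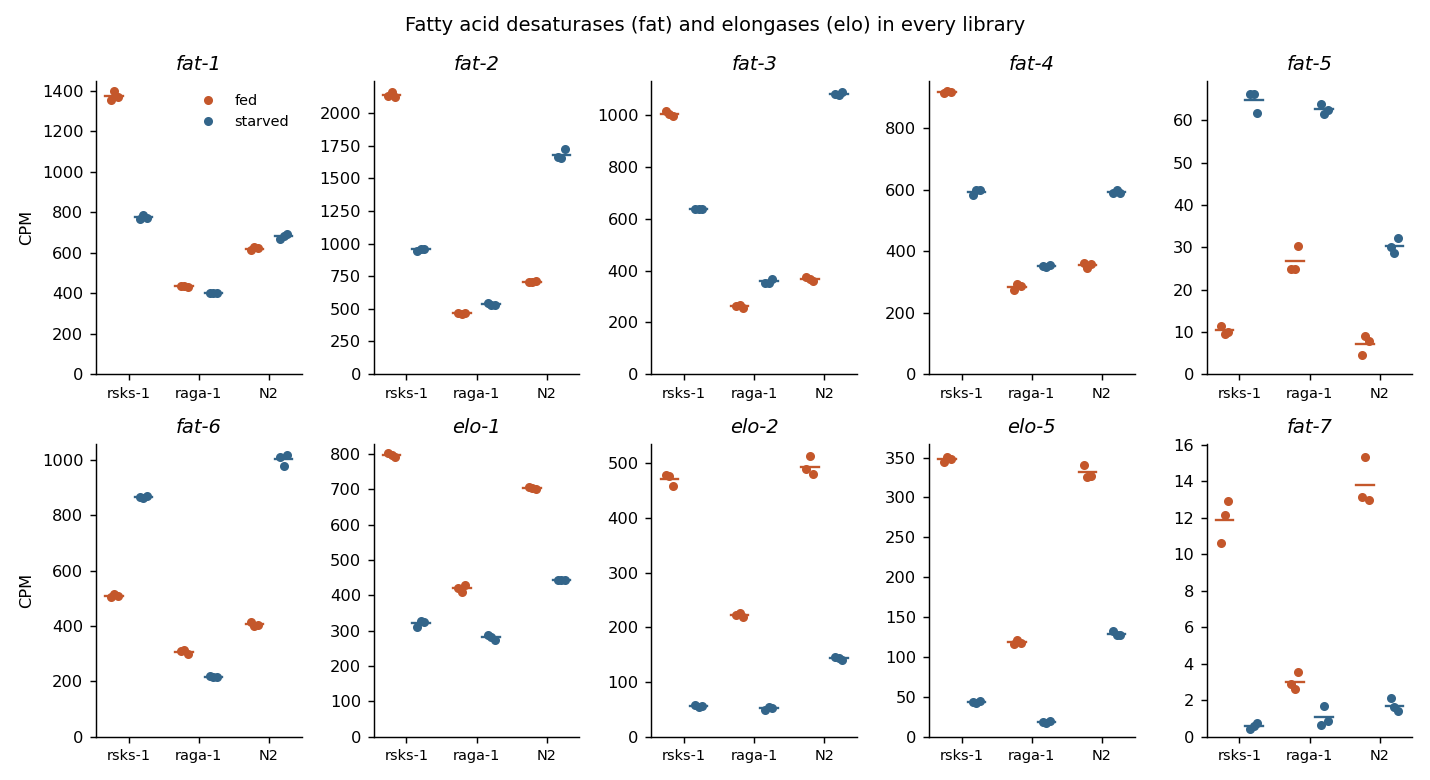
CPM of 7 fatty acid desaturase genes (fat) and 3 elongase genes (elo) in every library, by genotype, fed left of starved; points are libraries and lines the mean of 3. In rsks-1 larvae the fed points of fat-1, fat-2, fat-3 and fat-4 lie above the starved points, and in N2 they lie below.

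One-carbon and nucleotide genes rose. Of 27 propionate and methionine cycle genes 17 rose and 6 fell, beside 35.7% higher and 35.2% lower of all genes. Their difference from N2 was negative for 17 and positive for 7, or 15 and 8 with library totals alone. Over all genes it was negative for 15.8% and positive for 10.8%. cbs-1, cystathionine beta-synthase, had 297, 302 and 306 CPM in the fed libraries, against 56.8, 56.2 and 57.0 CPM in the starved libraries, and ahcy-1, the S-adenosylhomocysteine hydrolase, had 2226, 2329 and 2214 CPM in the fed libraries, against 893, 928 and 909 CPM in the starved libraries. acdh-1, an acyl-CoA dehydrogenase that responds to diet, rose by 1.32 ± 0.05 in the mutant and 2.65 ± 0.05 in N2, a difference of -1.32 ± 0.07. Of 17 amino acid transporter and peptide uptake genes 8 rose and 5 fell, beside the same shares of all genes, or 6 and 7 with library totals alone. Of 19 nucleotide synthesis genes 15 rose and 3 fell, with a median of 1.01. Their difference from N2 was negative for 7 and positive for 5. The purine genes pfas-1 and ppat-1 had larger log2 changes in the mutant (1.43 and 1.34) than in N2 (0.36 and -0.21), with differences of 1.07 ± 0.10 and 1.55 ± 0.22.

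The machinery of protein synthesis rose almost as a whole in rsks-1 larvae. All 20 cytosolic aminoacyl-tRNA synthetases, 54 of 55 translation factors, 67 of 70 mitochondrial ribosomal proteins, 41 of 45 ribosome biogenesis genes and all 18 genes of RNA polymerase III and tRNA processing were called higher, against 35.7% of all genes. The median log2 changes ran between 1.05 and 1.92, against -0.02 over all genes. fib-1, fibrillarin of the nucleolus, had 1462, 1522 and 1424 CPM in the fed libraries, against 192, 187 and 190.3 CPM in the starved libraries, a log2 change of 2.95 ± 0.03. nucl-1, nucleolin, had 1468, 1529 and 1476 CPM in the fed libraries, against 245, 236 and 253 CPM in the starved libraries. kars-1, the lysyl-tRNA synthetase, had 548, 563 and 541 CPM in the fed libraries, against 86.8, 89.3 and 91.9 CPM in the starved libraries, and inf-1, the eIF4A helicase, had 1129, 1118 and 1110 CPM in the fed libraries, against 154, 158 and 154 CPM in the starved libraries.

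Cytosolic ribosomal protein genes rose less but uniformly. Of 82 tested 80 were higher and none lower, with a median of 0.47, and quartiles of 0.43 and 0.54. With library totals alone 70 were higher and 1 lower. Together they took 20.7 ± 0.54% of all counts in fed larvae and 16.8 ± 0.10% in starved larvae (SD, n = 3). rps-6, the ribosomal protein that S6 kinase phosphorylates, had 3480, 3632 and 3456 CPM in the fed libraries, against 2448, 2487 and 2499 CPM in the starved libraries, a log2 change of 0.51 ± 0.03. The one mitochondrial ribosomal protein gene named for its abundance, mrps-11, fell, with 106, 109 and 116 CPM in the fed libraries, against 184, 187 and 181 CPM in the starved libraries.

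Set against N2, the difference was called negative for 47 of the 82 cytosolic ribosomal protein genes and positive for 1, against 15.8% and 10.8% of all genes. The medians were 0.47 in the mutant and 0.61 in N2. Scaling by library totals alone left 9 negative and 2 positive differences, and that of rps-6 was not called. Among 70 mitochondrial ribosomal protein genes 6 had a more positive response than in N2 and 1 a more negative one, beside 10.8% and 15.8% of all genes. Of 55 translation factors the difference was negative for 30 and positive for 6, or 20 and 8 with library totals alone. For 20 cytosolic aminoacyl-tRNA synthetases these counts were 14 and 1, or 12 and 1. For 45 ribosome biogenesis genes they were 15 and 7, or 14 and 11. For 18 genes of RNA polymerase III and tRNA processing they were 4 and 0, or 1 and 2. fib-1 rose by 2.95 in the mutant and 3.48 in N2, and rps-6 by 0.51 and 0.62. Of 14 genes linked to S6 kinase in the literature 9 rose and 5 fell, or 6 and 6 with library totals alone. ifg-1, the eIF4G scaffold, had 504, 494 and 498 CPM in the fed libraries, against 168, 172 and 165 CPM in the starved libraries. argk-1, an arginine kinase known to be raised in rsks-1 mutants, had 10, 8.98 and 6.18 CPM in the fed libraries, against 1.54, 0.863 and 1.16 CPM in the starved libraries, and its response exceeded that of N2 by 2.03 ± 0.36.

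Protein folding and breakdown genes rose, and less than in N2. Of 46 genes of the endoplasmic reticulum (ER) chaperone and unfolded protein response list 36 rose and 5 fell, and of 39 cytosolic and mitochondrial chaperones 25 rose and 7 fell. All 14 genes of the CCT chaperonin and prefoldin and 32 of 34 proteasome genes rose. The difference from N2 was called negative for 37, 17, 12 and 31 genes of these lists in that order and positive for none, against 15.8% negative and 10.8% positive over all genes. Under library totals alone the negative counts were 33, 15, 9 and 31, and 2 of the cytosolic and mitochondrial chaperones were positive.

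hsp-1, the constitutive Hsp70, had 2520, 2534 and 2484 CPM in the fed libraries, against 531, 530.2 and 504 CPM in the starved libraries. It rose by 2.27 ± 0.03 in the mutant and 3.37 ± 0.03 in N2. sec-61.A, of the ER translocon, had 698, 686 and 659 CPM in the fed libraries, against 184, 183 and 185 CPM in the starved libraries, and changed by 1.89 ± 0.03 in the mutant and 2.73 ± 0.03 in N2. crt-1, calreticulin, had 1235, 1250 and 1226 CPM in the fed libraries, against 999, 958 and 977 CPM in the starved libraries, a log2 change of 0.34 ± 0.03, against 1.45 ± 0.03 in N2. Several ER genes were added after their values were seen: the BiP homologue hsp-3 rose by 1.46 and pdi-2 by 1.72, against 2.61 and 2.92 in N2. The other BiP homologue, hsp-4, had 23.4, 22.8 and 22.2 CPM in the fed libraries, against 18.2, 19.5 and 15.9 CPM in the starved libraries, a rise that library totals alone took below the threshold. The sensor ire-1 was not called, at 0.06 ± 0.06, but was called lower with library totals alone, and xbp-1 changed by -0.37 ± 0.03.

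Autophagy genes fell. Of 32 tested 25 fell and 3 rose, with a median log2 change of -1.23, and 18 fell at least 2-fold. The list took 0.0833 ± 0.0006% of counts in fed larvae and 0.332 ± 0.003% in starved larvae (SD, n = 3). lgg-1, the Atg8 homologue that marks autophagosomes, had 77.4, 81.4 and 80 CPM in the fed libraries, against 673, 675 and 674 CPM in the starved libraries, and lgg-2, of the LC3 type, had 29, 27.8 and 29.7 CPM in the fed libraries, against 358, 355 and 351 CPM in the starved libraries. dct-1, a mitophagy receptor, had 7.53, 5.74 and 6.87 CPM in the fed libraries, against 154, 151 and 145 CPM in the starved libraries. hlh-30, the TFEB homologue that drives autophagy and lysosomal genes, was chosen after its values were seen and had 224, 230.3 and 218 CPM in the fed libraries, against 415, 388 and 406 CPM in the starved libraries. Their log2 changes were -3.08 ± 0.04, -3.62 ± 0.05, -4.50 ± 0.09 and -0.85 ± 0.03.

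Of these, the lgg-1 change differed from N2 by -0.22 ± 0.05, a call that library totals alone removed. V-ATPase and lysosomal protease genes were divided, with 26 higher and 27 lower of 61, or 21 and 33 with library totals alone. cpz-1, a cathepsin, had 28.8, 28.9 and 29.5 CPM in the fed libraries, against 189, 211 and 200.1 CPM in the starved libraries, and asp-1, an aspartyl protease, had 2993, 3127 and 3048 CPM in the fed libraries, against 4455, 4478 and 4292 CPM in the starved libraries. asp-1 fell in the mutant, by 0.53, and rose in N2, by 0.15. For this list the difference from N2 was negative in 34 genes and positive in 9, against 15.8% and 10.8% of all genes.

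**Figure D3:**
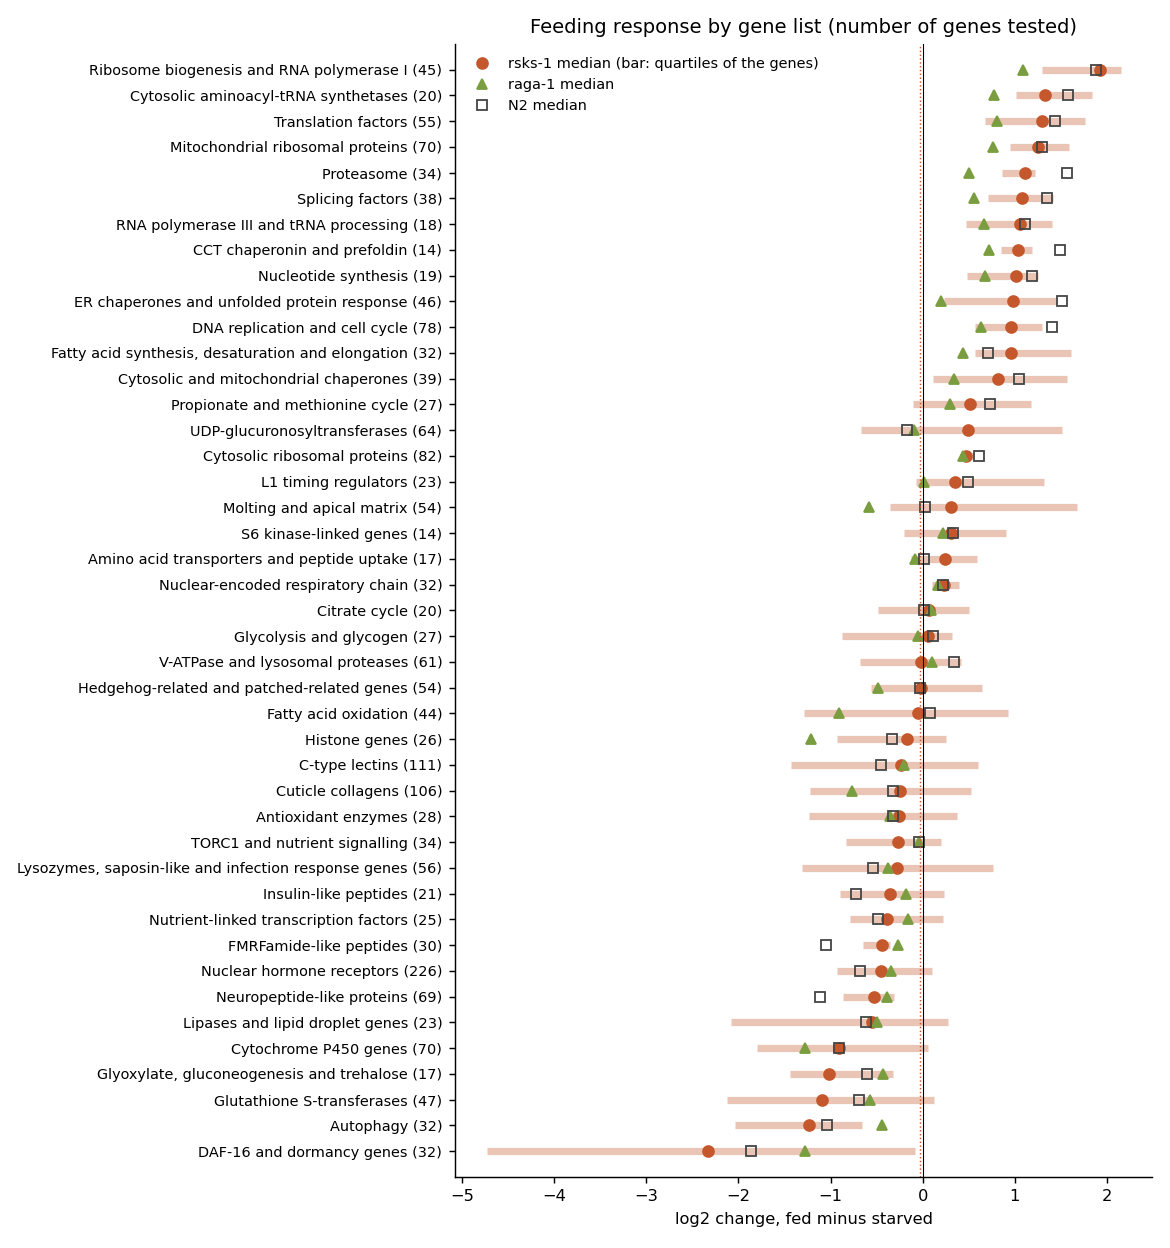
Median log2 change on feeding (fed minus starved) for each function list, with the number of genes tested: circles rsks-1, triangles raga-1, open squares N2. Bars span the quartiles of the genes in rsks-1 and the dotted line is the rsks-1 median of all genes. Ribosome biogenesis stands highest and DAF-16 and dormancy genes lowest in rsks-1.

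Nutrient-sensing genes were lower more often than higher. Of 34 genes of the TORC1, AMP-activated kinase (AMPK) and insulin pathways 21 fell and 8 rose, with a median of -0.27. Over all genes 35.2% fell and 35.7% rose, with a median of -0.02. The AMPK subunits, which sense low energy, fell: aak-2, a catalytic subunit, had 52.8, 56.2 and 54.4 CPM in the fed libraries, against 172, 174 and 169.9 CPM in the starved libraries, and aakg-1, a regulatory one, had 50.8, 52.7 and 48.8 CPM in the fed libraries, against 186, 184 and 186 CPM in the starved libraries. aak-1, aakb-1 and aakb-2 fell by 1.59, 1.31 and 1.12. aakg-2 rose by 0.29, a call that library totals alone removed.

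In the insulin pathway daf-2, the receptor, had 84.1, 73.1 and 77.9 CPM in the fed libraries, against 228, 223 and 214 CPM in the starved libraries. The kinases akt-1 and akt-2 fell by 1.74 and 0.90, ist-1, a substrate of the receptor, by 2.04 and daf-16 itself by 0.39. Of TORC1 itself, let-363, the TOR kinase, changed by -0.20 ± 0.05 and daf-15, Raptor, by -0.55 ± 0.04, while daf-15 was not called in N2 (-0.04 ± 0.04), a difference of -0.51 ± 0.06. ragc-1, flcn-1, sesn-1 and nprl-2 rose, by 0.78, 0.49, 0.58 and 0.70. raga-1 had 44.6, 49.1 and 48.5 CPM in the fed libraries, against 48.25, 49.7 and 42.9 CPM in the starved libraries, a log2 change of 0.02 ± 0.07 (adjusted p = 0.805), against 0.36 ± 0.07 in N2. With library totals alone raga-1 was called lower in the mutant, at -0.18.

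Hormone and transcription factor genes moved as follows. Of 21 insulin-like peptide genes 6 rose and 8 fell, beside 35.7% higher and 35.2% lower of all genes. daf-28, which promotes development, had 87.2, 83.0 and 96.0 CPM in the fed libraries, against 26.6, 25.6 and 24.7 CPM in the starved libraries, and ins-6, which does the same, had 10.2, 8.24 and 9.77 CPM in the fed libraries, against 2.4, 3.08 and 2.59 CPM in the starved libraries. Both rose more than in N2, by 0.88 ± 0.09 and 1.02 ± 0.25. ins-17 fell, with 71.1, 72.3 and 67.9 CPM in the fed libraries, against 125, 128 and 125 CPM in the starved libraries. Of 25 nutrient-linked transcription factors 15 fell and 7 rose. mxl-3, a repressor of lipase genes in fed animals as known from adults, had 17, 17.4 and 16.8 CPM in the fed libraries, against 141, 135 and 135 CPM in the starved libraries, and klf-3, a Krüppel-like factor of fat metabolism, had 65.4, 62.1 and 58.9 CPM in the fed libraries, against 28.7, 27 and 27.3 CPM in the starved libraries. nhr-49, a nuclear receptor of the fasting response chosen after its values were seen, fell by 0.49.

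DAF-16 and dormancy genes had the lowest list median, -2.33. Of 32 tested 24 fell and 5 rose, and 22 fell at least 2-fold. The list took 0.234 ± 0.008% of counts in fed larvae and 1.99 ± 0.01% in starved larvae (SD, n = 3). It shares tts-1, icl-1, nnt-1, hil-1, fmo-2, adh-1, dct-1, gpdh-1 and pck-1 with the groups above. sod-3, a mitochondrial superoxide dismutase and DAF-16 target, had 2.27, 1.28 and 2.06 CPM in the fed libraries, against 15.9, 16.16 and 15.2 CPM in the starved libraries. It fell by 3.11 in the mutant and 1.23 in N2, a difference of -1.88 ± 0.37. mtl-1, a metallothionein, had 12, 10.47 and 11.8 CPM in the fed libraries, against 51.3, 50.7 and 54.6 CPM in the starved libraries, and in N2 its change was 0.00 ± 0.11, so that the difference was -2.2 ± 0.15. mtl-2 rose by 5.3 in the mutant and 5.05 in N2.

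**Figure D4:**
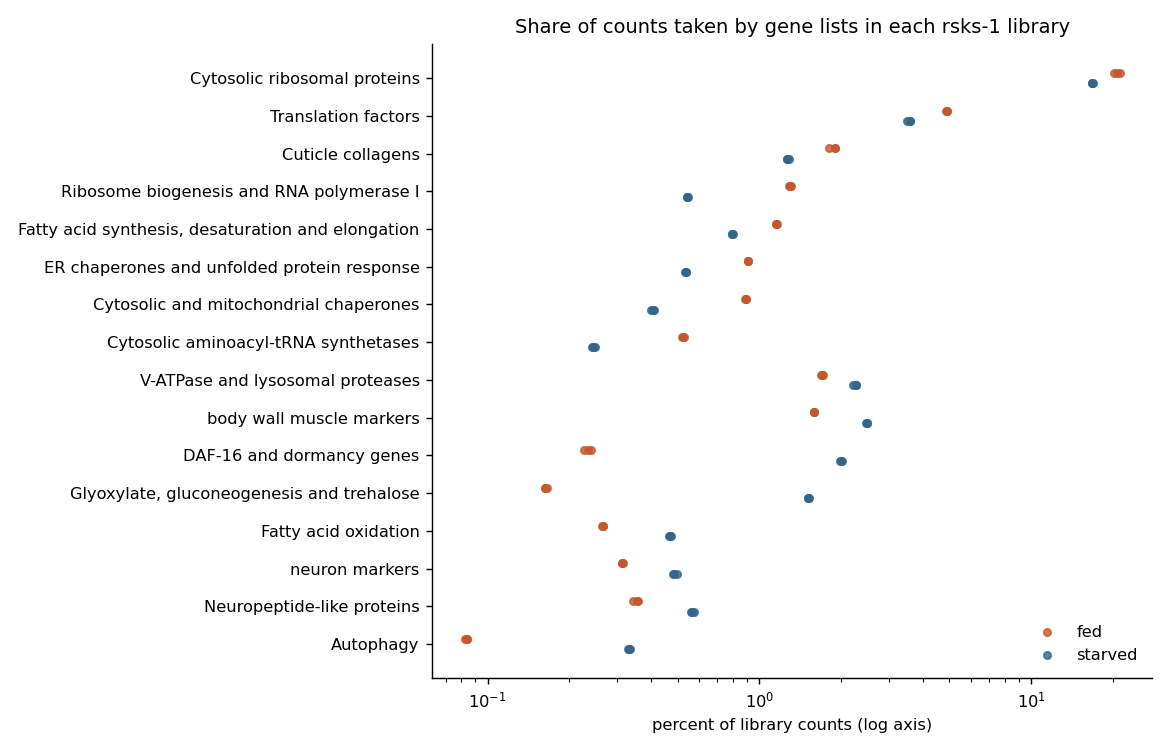
Percent of all counts (log axis) taken by 16 gene lists in each of the 3 fed and 3 starved rsks-1 libraries, 1 point per library. Cytosolic ribosomal proteins hold the largest share in both states, and the glyoxylate and dormancy lists show the widest gaps between fed and starved.

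Growth genes rose. Of 78 DNA replication and cell cycle genes 69 rose and 2 fell, with a median of 0.96. pcn-1, the sliding clamp PCNA, had 167, 162 and 160.4 CPM in the fed libraries, against 51.1, 49.7 and 47.6 CPM in the starved libraries, and mcm-7, of the replicative helicase, had 99.4, 97.0 and 96.3 CPM in the fed libraries, against 31.9, 28.7 and 29.6 CPM in the starved libraries. mcm-7 rose by 1.70 ± 0.07 in the mutant and 2.80 ± 0.08 in N2. Over the list the difference from N2 was negative for 45 genes and positive for none, against 15.8% and 10.8% of all genes. Of 38 splicing factors 36 rose and 1 fell. Of 26 histone genes 6 were higher and 5 lower, or 3 and 11 with library totals alone. his-37 had 109, 118.8 and 115 CPM in the fed libraries, against 316, 333 and 324 CPM in the starved libraries. Core histone genes have near-identical copies, so their split of reads is uncertain.

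Several regulators of the moult rose. lin-42, the Period homologue that paces moulting, had 20.8, 17.8 and 16.9 CPM in the fed libraries, against 3.26, 4.32 and 3.07 CPM in the starved libraries, and bed-3, a moulting cycle factor, had 18.4, 18.1 and 19.9 CPM in the fed libraries, against 1.80, 1.91 and 2.59 CPM in the starved libraries. nhr-23, a nuclear receptor that starts moulting programmes, had 41.8, 39.2 and 42.9 CPM in the fed libraries, against 14.1, 10.3 and 11.9 CPM in the starved libraries. Of 23 L1 timing genes 13 rose and 5 fell, or 11 and 7 with library totals alone. lin-14, which specifies L1 fates and was chosen after its values were seen, fell by 0.38, and lin-28 by 0.15. Among 54 moulting and apical matrix genes 22 rose and 12 fell, or 20 and 19 with library totals alone, against 35.7% higher and 35.2% lower of all genes. noah-2 and fbn-1, apical matrix proteins, had 22.2, 22.3 and 22.9 and 31.3, 27.6 and 32.5 CPM in fed larvae, against 2.06, 1.11 and 0.818 and 1.97, 1.85 and 1.5 CPM in starved larvae.

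Collagens were split, yet their summed level rose. Of 106 cuticle collagen genes 42 fell and 29 rose, and the list took 1.87 ± 0.06% of counts in fed larvae and 1.27 ± 0.01% in starved larvae (SD, n = 3). col-3 had 3285, 3655 and 3805 CPM in the fed libraries, against 1950, 1985 and 1977 CPM in the starved libraries, and col-10, counted among the hypodermis markers, had 3418, 3647 and 3500 CPM in the fed libraries, against 1196, 1238 and 1242 CPM in the starved libraries. col-170 rose, with 116, 113 and 118 CPM in the fed libraries, against 9.0, 7.28 and 7.29 CPM in the starved libraries, and col-153 fell, with 0.515, 0.473 and 0.458 CPM in the fed libraries, against 7.88, 10.2 and 9.95 CPM in the starved libraries. col-80 fell by 1.2 in the mutant and rose by 0.61 in N2. Of 54 hedgehog-related and patched-related genes, which serve the body surface, 15 rose and 16 fell, or 10 and 17 with library totals alone. grd-3 fell by 0.38 in the mutant and rose by 1.92 in N2, and grd-13 rose by 0.93 and 3.25.

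Detoxification families went different ways. Of 70 cytochrome P450 genes 42 fell and 12 rose, although 3 of the 12 highest genes are members. Of 47 glutathione S-transferases 30 fell and 11 rose, with a median of -1.09. gst-27 rose, with 415, 395 and 413 CPM in the fed libraries, against 109, 114 and 110 CPM in the starved libraries. gst-24 had 26.7, 28.8 and 27.7 CPM in the fed libraries, against 33.1, 31.1 and 34.5 CPM in the starved libraries, a fall of 0.24 against a rise of 2.38 in N2, and the difference was -2.62 ± 0.10. Of 64 UDP-glucuronosyltransferases 34 rose and 22 fell. ugt-22 had 411, 413 and 424 CPM in the fed libraries, against 35.8, 36.2 and 36 CPM in the starved libraries, and ugt-16 had 141, 145 and 146 CPM in the fed libraries, against 9.6, 8.82 and 9.2 CPM in the starved libraries. ugt-44 rose by 0.56 in the mutant and fell by 1.07 in N2.

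Antioxidant enzymes were lower in 18 and higher in 8 of 28 genes, and ctl-2, a peroxisomal catalase, had 80.3, 78.8 and 79.3 CPM in the fed libraries, against 436, 435 and 446 CPM in the starved libraries. C-type lectins, which bind sugars, were lower in 46 and higher in 32 of 111, beside 35.2% lower and 35.7% higher of all genes. clec-9 had no counts in the fed libraries and 302 over the starved ones, so feeding lowered it at least 88.9-fold when 3 counts over the fed group are taken as the limit of detection. Of 56 lysozyme, saposin-like and infection response genes 25 fell and 20 rose, or 28 and 14 with library totals alone. irg-5 rose by 3.07 in the mutant and 5.42 in N2. Nuclear hormone receptor genes fell more often than they rose, 126 against 38 of 226. nhr-97, the most abundant per kilobase of them, rose, with 415, 419 and 412 CPM in the fed libraries, against 245, 251 and 248 CPM in the starved libraries.

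Neuropeptide genes fell, and less than in N2. Of 30 FMRFamide-like peptide genes 28 fell and 1 rose, and of 69 neuropeptide-like protein genes 51 fell and 5 rose, with medians of -0.44 and -0.53. flp-1 had 322, 327 and 337 CPM in the fed libraries, against 405, 424 and 426 CPM in the starved libraries, and flp-27 had 62.5, 70.9 and 70.5 CPM in the fed libraries, against 128, 134 and 139.7 CPM in the starved libraries. flp-27 fell by 0.97 in the mutant and 2.31 in N2, a difference of 1.34 ± 0.09. The difference was positive for 26 and 47 genes of these lists and negative for none, against 10.8% positive and 15.8% negative over all genes. nlp-49 had 354, 384 and 378 CPM in the fed libraries, against 576, 550.2 and 579 CPM in the starved libraries. General neuron markers moved with them: 19 of 29 fell and 2 rose, their difference from N2 was positive for 7 and negative for none, and they took 0.312 to 0.314% of counts in fed larvae and 0.482 to 0.497% in starved larvae. The part of this shift in the neuropeptide result was not tested.

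Markers of other tissues were divided. Of 24 body wall muscle markers 14 fell and 9 rose, beside 35.2% lower and 35.7% higher of all genes. Their difference from N2 was negative for 18 and positive for 1, or 14 and 1 with library totals alone. Over all genes it was negative for 15.8% and positive for 10.8%. unc-54, the major myosin heavy chain, had 2913, 2835 and 2733 CPM in the fed libraries, against 5837, 5794 and 5837 CPM in the starved libraries, and unc-52, perlecan, had 850.2, 829 and 823 CPM in the fed libraries, against 357, 344 and 344 CPM in the starved libraries. Of 19 pharynx markers 12 fell and 2 rose. Intestine markers rose in 10 and fell in 7 of 18, with a median of 0.18 that was -0.02 with library totals alone. Their difference from N2 was negative for 13 and positive for 1, or 11 and 1 with library totals alone. act-5, the actin of the gut microvilli, had 1915, 1920 and 1917 CPM in the fed libraries, against 552, 567 and 544 CPM in the starved libraries, and ges-1, the gut esterase, had 14.6, 13.3 and 14.4 CPM in the fed libraries, against 96.9, 97.8 and 94.9 CPM in the starved libraries. Hypodermis markers rose in 9 and fell in 3 of 19, and germline markers rose in 14 and fell in 2 of 29. For pharynx, hypodermis and germline markers the difference from N2 was positive for 6, 5 and 2 genes and negative for 4, 3 and 6. Markers of neurons, muscle, pharynx, intestine and hypodermis had counts in every rsks-1 library. Embryo and adult markers took 0.036 ± 0.001% of counts in fed larvae and 0.046 ± 0.0001% in starved larvae.

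Set against N2, the response of rsks-1 larvae had the same direction and was often smaller. These 2 responses share no libraries. In both strains 8643 genes were called in the same direction. Among these the difference was called for 2171 genes with the smaller change in rsks-1 and for 550 with the larger. Of genes at least 2-fold higher in rsks-1, 86.8% were also 2-fold higher in N2, and 69.0% of the N2 genes were so in rsks-1. For lower genes the shares were 81.0% and 67.9%. Over 2155 genes that changed at least 2-fold in raga-1, the slope of the rsks-1 change on the N2 change was 0.786 and 92.2% had the same sign. The median ratio of the 2 changes was 0.868 over these genes and 0.7765 over all genes tested. The slope over all genes tested was 0.756. It is a description with no p, since genes are not replicates.

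The feeding response differed between rsks-1 and N2, by the interaction test, for 3737 genes (26.6%), 1515 with a more positive and 2222 with a more negative change in rsks-1. These counts were 2351 and 1439 with library totals alone, which put the median difference over all genes at 0.10. Opposite calls in the 2 strains, with a called difference, were found for 153 genes, of which 75 rose in rsks-1 and fell in N2 and 78 did the reverse. The largest differences at 10 CPM or more were in cyp-37B1, which fell by 5.19 in rsks-1 and 9.05 in N2, and in lipl-3, which fell by 5.07 and 8.24. cyp-13B1 had 38.8, 43.6 and 41.4 CPM in the fed libraries, against 10.9, 8.20 and 8.86 CPM in the starved libraries, and its change in N2 was -0.32 ± 0.16. col-93 had 21.9, 22 and 19.5 CPM in the fed libraries, against 17.1, 19.4 and 18.6 CPM in the starved libraries, and rose by 3.12 in N2.

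**Figure D5:**
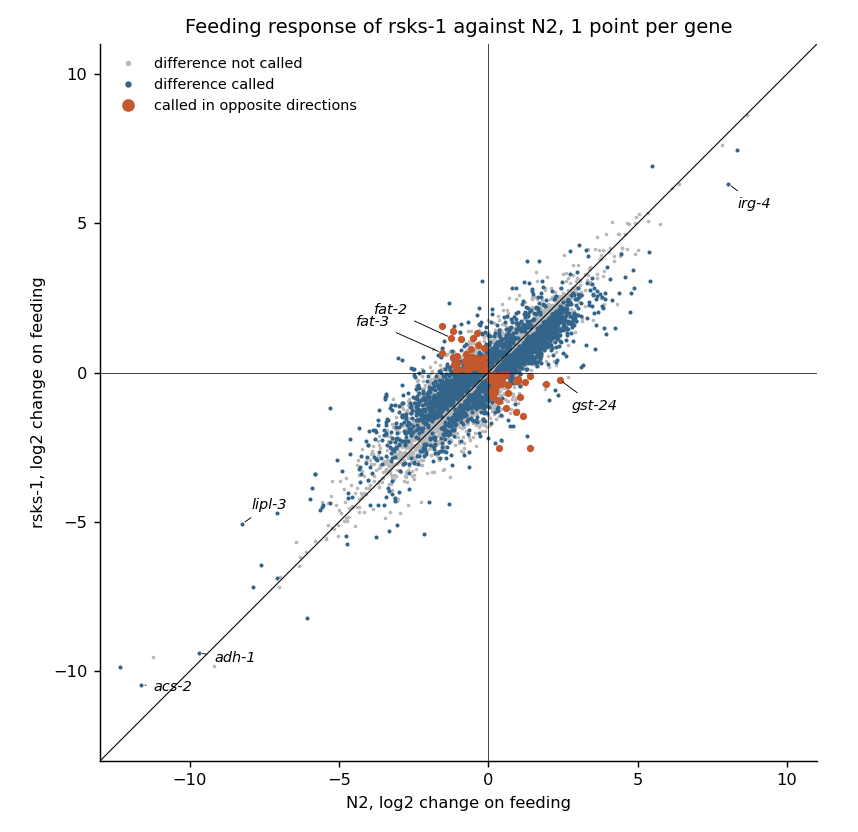
Log2 change on feeding in rsks-1 (vertical axis) against N2 (horizontal axis) for 13572 genes with more than 3 counts in each of the 4 groups, 1 point per gene, with the line of equal change. Of 151 genes called in opposite directions in this set, fat-2, fat-3 and gst-24 are labelled. Most points lie near the line of equal change.

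Against raga-1 the responses differed for 6199 genes (44%), 3554 with a more positive change in rsks-1 (25.3%) and 2645 with a more negative one (18.8%). With library totals alone the counts were 2835 and 3360. Of genes at least 2-fold higher in rsks-1, 28.3% were so in raga-1, and for genes at least 2-fold lower the share was 44.2%. In raga-1 fewer genes passed that limit, 606 higher and 1549 lower. Of these, 85.15% and 63.46% were at least 2-fold higher or lower in rsks-1 as well. Among the named genes noah-2 had the largest difference: it rose by 4.13 in rsks-1 and fell by 3.02 in raga-1, and fbn-1 rose by 4.1 and fell by 2.06. Of the genes named for the most negative differences, adh-1 changed by -9.39 in rsks-1 and -5.39 in raga-1, and tts-1 by -7.17 and -2.32. Over the DAF-16 and dormancy list the difference was negative for 19 of 32 genes and positive for 4. That list took 0.806% of counts in starved raga-1 larvae and 1.99% in starved rsks-1 larvae. In fed larvae it took 0.287% in raga-1 and 0.234% in rsks-1. Fatty acid oxidation genes went the other way, with 29 positive and 7 negative differences of 44. Autophagy genes had a more negative change in 24 of 32 and a more positive one in 1, and ribosome biogenesis genes a more positive one in 40 of 45.

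Some abundant genes held their level. act-1, an actin, had 2949, 3014 and 2960 CPM in the fed libraries, against 3017, 2973 and 2948 CPM in the starved libraries, a log2 change of -0.00 ± 0.03 (adjusted p = 0.94). The zinc finger gene ztf-7, the aspartyl proteases asp-3 and asp-5, the ATP synthase subunit atp-3 and clik-1 likewise had 95% intervals within 0.25 of 0, with log2 changes from -0.04 to 0.04. With library totals alone all 6 were called lower, between -0.24 and -0.16. In N2 act-1 rose by 0.47 and ztf-7 fell by 0.89.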

How the data were processed

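Whole L1 larvae of 3 genotypes, fed or starved, were measured by RNA sequencing in 18 libraries, 3 per group; the labels give no batch. The deposited table holds expected counts per gene and per isoform made by the authors. Per the labels' protocols reads were aligned with STAR in 2 passes to a genome named WBcel269, and the submitters' processing notes also name RSEM and DESeq2, without versions. Gene names and biotypes come from the WBcel235 annotation, which names 44017 of the 46904 genes.

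Expected counts were rounded to whole numbers and tested with edgeR 4.0.16 in R 4.3.3 (filterByExpr with a minimum count of 10, TMM factors, robust quasi-likelihood fit, 1 mean per group over all 18 libraries, 12 residual degrees of freedom). P-values were adjusted by Benjamini-Hochberg over 14073 genes and called below 0.05. The ± values after log2 changes are standard errors. Differences between feeding responses are interaction contrasts. Intervals for genes with 1 to 3 counts in a group are at 95% and, like the floor of 3 counts, cover counting error only. The steps were tested on simulated data: for feeding in rsks-1, 41 of 50 genes changed 2-fold were recovered among 14073. The simulation changed 50 genes at each fold change, up and down alike, and kept all others equal between groups. In the data 9968 genes were called, so the simulation did not test the scaling or the threshold under so many changes.

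The 50 gene lists, 7 of them tissue markers, and the comparison itself were chosen with earlier results of these data known; 53 list entries matched no gene. Named genes are the 12 highest and 12 lowest by log2 change (adjusted p below 0.05, at least 10 CPM in fed or starved rsks-1, no overlap, a letters-hyphen-number name), the 4 most changed and the most abundant member per kilobase of each list, the TORC1 list, the 6 most positive and 6 most negative differences from N2 and from raga-1, up to 6 opposite responses and 6 unchanged genes. Genes chosen after their values were seen are marked. Alternatives were other scaling factors, DESeq2 1.42.0, no filter, a replicate block, isoform sums, only the 6 rsks-1 libraries and leaving out each library.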

Additional observations from a re-analysis of the deposited data

Results flagged for a closer look

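The feeding response differed between rsks-1 and N2, by a test of the difference itself, for 3737 genes, and between rsks-1 and raga-1 for 6199 genes. The differences below are log2 changes in rsks-1 minus those in the other strain, for the genes with the largest called differences at 10 CPM or more and for genes called in opposite directions in rsks-1 and N2.

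Against N2 the change was more positive in rsks-1 for cyp-37B1 (3.85), lipl-3 (3.17), pud-1.1 (2.76), cyp-13B1 (2.48), fat-2 (2.41), clec-15 (2.4), fat-3 (2.22) and ugt-44 (1.62). It was more negative for col-93 (-2.92), gst-24 (-2.62), irg-5 (-2.35), grd-13 (-2.33), grd-3 (-2.3), mtl-1 (-2.2) and col-80 (-1.80). The pud-1.1 value has close copies of the gene behind it and a wide spread: the fed rsks-1 libraries had 182, 256 and 288 CPM and the starved ones 227, 195 and 233 CPM. Its difference was not called by DESeq2 (adjusted p = 0.341) or without replicate 1 of fed N2 (adjusted p = 0.0627).

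Against raga-1 the change was more positive in rsks-1 for noah-2 (7.15), cyp-35A5 (6.73), sym-1 (6.64), hmit-1.1 (6.32), mlt-8 (6.25) and fbn-1 (6.16), 4 of them genes of moulting or the apical matrix. It was more negative for tts-1 (-4.85), fmo-2 (-4.44), nnt-1 (-4.37), adh-1 (-4.0), fbxa-24 (-3.51) and lipl-2 (-3.47). sym-1 had 24.2, 20.4 and 23.5 CPM in the fed libraries, against 1.71, 1.05 and 1.70 CPM in the starved libraries, and in raga-1 1.4, 0.673 and 0.708 CPM in fed larvae and 5.39, 6.50 and 6.12 CPM in starved larvae.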

How the results depend on the processing

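No named gene's feeding change in rsks-1 changed direction while called in both fits. The same held for differences from N2 and raga-1 among genes named for the size of that difference or for opposite responses. Differences given for other genes were not part of this check. Over all genes, 27 of the 8948 called for feeding in rsks-1 both with TMM and with library totals alone had opposite signs, and none did under the other settings. That scaling also moved the count of differences from N2 to 2351 positive and 1439 negative, from 1515 and 2222, and of differences from raga-1 to 2835 and 3360, from 3554 and 2645. Against raga-1, cytosolic ribosomal proteins had 4 positive and 21 negative differences under it, against 23 and 2. The cause was not tested. The count of genes called for feeding in rsks-1 was 9968, against 10012 with relative log expression factors, 10224 with library totals alone, 9707 with DESeq2, 10139 with no filter, 9962 with isoform sums and 9874 with only the 6 rsks-1 libraries. Leaving out 1 rsks-1 library at a time gave 9533 to 9740.

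The slope of the rsks-1 response on the N2 response was 0.756 over all genes tested, against 0.786 over the genes that changed at least 2-fold in raga-1. For that set it was 0.735 to 0.79 when 1 library was left out, lowest without replicate 1 of fed N2. The labels number replicates 1 to 3 in each group. Deviations of same-numbered fed and starved rsks-1 libraries correlated at 0.0485, 0.0405 and 0.046, and each library correlated best with its own number. Pairs with different numbers ran from -0.0451 to 0.002. The labels do not say whether a number stands for a shared culture or batch, and this was not tested. With a replicate block 9943 genes were called, 9928 of them among the 9968.

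In simulated data, where most genes were left unchanged, 21 of the 50 genes given the smallest of the simulated fold changes were recovered for feeding in rsks-1. Small changes of aap-1, pdk-1, lmtr-3, aakg-2 and col-93 crossed the threshold in at least 1 setting. Larger changes of nlp-32, phat-2, abu-11, pfk-1.2, nhr-74 and fbf-1 also lost their call in at least 1 fit that left out a rsks-1 library. That of nlp-32 was -1.74 without replicate 3 of the starved larvae, and that of fbf-1 was 0.71 without replicate 1 of the fed larvae. Some other named genes crossed the threshold with library totals alone.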

Other observations

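Some gene classes outside the lists held fewer genes that rose on feeding in rsks-1 than the 35.7% of all genes, beside 35.2% that fell. Of 335 pseudogenes tested 133 fell and 43 rose, with a median log2 change of -0.40, and of 48 genes annotated as ncRNA 25 fell and 8 rose. Of 39 lincRNA genes 19 fell and 7 rose. Chromosome V had 1320 lower and 842 higher genes of 3059, and chromosome III had 652 lower and 972 higher of 2145. fbxa-24, an F-box gene in none of the lists, had 9.18, 10.3 and 10.4 CPM in the fed libraries, against 229.5, 229.7 and 229.9 CPM in the starved libraries, a log2 change of -4.52 ± 0.07.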
